A study of Mus musculus with 2 samples.

Results

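The transcripts described here are those of the CITED co-regulator genes Cited4 and Cited2 and of Ep300 and Crebbp, which encode the acetyltransferases p300 and CBP that CITED proteins bind. The 4 genes were chosen by symbol among the 28692 genes of the matrices, and all 4 were found. They were chosen with their values in these libraries in view, above all the difference of Cited4 between the libraries and its place among the leading genes of a group of cells, so every value below is a description and none is a test. The cells were cultured C57BL/6 mouse bone marrow cells, from 5 mice per the design text, enriched for stem and progenitor cells and infected with a GFP retrovirus. In the knockdown library the virus carried a short hairpin RNA against Cxxc5, and in the control library a hairpin that targets no mouse gene. Both libraries otherwise share their history: GFP-positive LSK cells (lineage-negative, Sca-1-positive, Kit-positive, the fraction of marrow that holds blood stem and multipotent progenitor cells) were sorted and grown for 3 days in 20% serum with 10 ng/ml GM-CSF and 10 ng/ml SCF, a culture that drives myeloid differentiation. The pools each combined 5 samples into 1 library, which left 1 library per group, no replicate and no p-value. The design text does not say whether the same mice supplied both pools. How many different hairpins were used is not given in the sources used here.

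CITED proteins do not bind DNA themselves. They carry an acidic tail that docks on a zinc finger domain of p300 and CBP, the same surface that the transactivation domain of HIF-1α, the oxygen-regulated transcription factor, uses. Through that dock Cited2 is known to restrain HIF-driven transcription, and both Cited2 and Cited4 are known as co-activators of TFAP2 factors. In mouse bone marrow Cited2 is needed to maintain adult blood stem cells, and p300 and CBP acetylate histones at enhancers and are recruited by many of the factors that direct myeloid cells.

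After filtering, the knockdown library held 6004 cells and the control library 2912 cells, with a median of 10599 and 17197 UMIs per cell (unique molecular identifiers, each counting 1 captured transcript). The values are UMI counts, and a level is given as CPM, the UMIs of a gene per 1000000 UMIs of the cells summed. The targeted gene Cxxc5 had 73 UMIs in the knockdown library and 462 in the control library, a log2 ratio of -3.01 (-3.39 to -2.65), which goes with the labels. Intervals are 95% and cover counting error only. The median mitochondrial share of UMIs was 3.98% and 3.92%, and 26 cell barcodes occurred in both libraries. The summed level of 12 neutrophil markers was 17342 CPM in the knockdown and 22370 CPM in the control library, that of 11 monocyte-macrophage markers 118 and 168 CPM, and that of 7 dendritic cell markers 84.6 and 221 CPM. Markers of the sorted starting cells were still found after culture, at 118 and 121 CPM for 10 stem and multipotent progenitor genes together. The 7 lymphoid markers together were at 15.9 and 15.8 CPM, with 2 of 7 at 0 UMIs in each library, and the 7 stromal and endothelial markers at 53.6 and 61.4 CPM, with 1 of 7 at 0.

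Cited4 (ENSMUSG00000070803) is a gene of 1 exon on chromosome 4, 120666572 to 120667820 on the plus strand, in GRCm38 (GENCODE M21). Cited2 (ENSMUSG00000039910) has 2 annotated exons on chromosome 10, 17723218 to 17725674, plus strand. Ep300 (ENSMUSG00000055024) spans chromosome 15, 81585351 to 81652077, plus strand, with 31 exons. Crebbp (ENSMUSG00000022521) spans chromosome 16, 4081328 to 4213997, minus strand, also with 31 exons. The 250 bases before the RefSeq start of both CITED genes (GRCm38.p6) are shown because the CXXC zinc finger, the domain that gives Cxxc5 its name, is known to bind CG dinucleotides, and because the levels of the genes differ in pattern across the cells. Capitals mark CG. The windows are chr4:120666313-120666562 and chr10:17722978-17723227, both on the plus strand.
Cited4: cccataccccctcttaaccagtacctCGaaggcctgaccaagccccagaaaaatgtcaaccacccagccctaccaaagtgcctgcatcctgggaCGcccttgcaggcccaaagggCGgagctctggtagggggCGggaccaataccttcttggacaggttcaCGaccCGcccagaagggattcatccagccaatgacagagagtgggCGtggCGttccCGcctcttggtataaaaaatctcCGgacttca
Cited2: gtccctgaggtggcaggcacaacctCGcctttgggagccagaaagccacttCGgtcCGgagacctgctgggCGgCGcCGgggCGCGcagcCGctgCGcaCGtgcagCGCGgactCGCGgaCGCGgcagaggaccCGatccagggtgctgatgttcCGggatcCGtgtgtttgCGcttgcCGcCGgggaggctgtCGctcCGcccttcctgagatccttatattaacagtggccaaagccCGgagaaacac

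The Cited4 window holds 10 CG and is 58% G and C, and the Cited2 window holds 26 CG and is 66.8% G and C. Over 32851 RefSeq promoter windows of the same length the median was 6 CG, and Cited4 exceeded 62.2% and Cited2 90.4% of them. The windows of Ep300 and Crebbp hold 25 and 44 CG, more than 89.3% and 99.5% of all windows. They are chr15:81585964-81586213 (plus) and chr16:4213405-4213654 (minus). Both lie inside the GENCODE spans given above, past the annotated start of the gene. The letters ACGTG and GCGTG, the core that HIF factors are known to bind, were searched on both strands. Cited2 holds 2 overlapping matches to ACGTG, 153 and 152 bases before the start, 1 on each strand of a palindrome. That motif occurs in 16.6% of all windows. Cited4 holds 1 GCGTG, 44 bases before the start, as 28.2% of windows do at least once. Cited4 also holds TATAAA 22 bases before the start, found in 12.4% of windows, and CCAAT 112 and 61 bases before it, found in 33.8%. The other members held no match to CCAAT or TATAAA on either strand. These are matches of letters, and no binding was measured.

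Over all cells, Cited4 stood out among the members. The knockdown library held 2901 Cited4 UMIs, a level of 46.1 CPM (44.5 to 47.9), and the control library 1288 UMIs, 26.1 CPM (24.7 to 27.6). The log2 ratio of knockdown over control was 0.82 (0.72 to 0.92), or 1.77-fold. It was the 4th highest ratio among 4798 genes of at least 20 CPM in either library, whose median log2 ratio was 0.04 and whose central 90% lay between -0.24 and 0.22. Of these genes, 3.02% were at least 1.2-fold higher and 4.06% at least 1.2-fold lower in the knockdown library. Cited4 was the 1 member past 1.2-fold over all cells, a count that reflects how the members were chosen.

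A Cited4 UMI was found in 26.3% of knockdown cells (25.2 to 27.5%) and in 20.1% of control cells (18.6 to 21.6%), although the knockdown cells were shallower. With every cell thinned to 5000 UMIs, which left out 641 knockdown and 115 control cells with fewer, the shares were 16.3% and 8.72%. In the knockdown library 876 cells had 1, 374 had 2, 192 had 3 and 140 had 4 or more, and in the control library the numbers were 292, 133, 69 and 91. The highest count was 11 in a knockdown cell and 18 in a control cell. Cells with 4 or more were thus 2.33% of the knockdown and 3.12% of the control library, and the 10 richest cells held 2.93% and 8.23% of all Cited4 UMIs. Without the 10 richest cells of each library the log2 ratio was 0.90.

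Cited2 was found in most cells, at 261 CPM (257 to 265) from 16414 UMIs in the knockdown library and 239.5 CPM (235 to 244) from 11801 UMIs in the control library. Its log2 ratio was 0.12 (0.09 to 0.16), within the central 90% of genes and above 78.6% of them. A UMI was found in 82.4% of knockdown and 87.1% of control cells, but at 5000 UMIs per cell the order turned, with 66.7% and 61.7%. Cited1, the remaining family gene in mouse, had 2 UMIs in the knockdown and 1 in the control library.

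Neither partner passed 1.2-fold over all cells. Ep300 had 804 UMIs or 12.8 CPM (11.9 to 13.7) in the knockdown and 694 UMIs or 14.1 CPM (13.1 to 15.2) in the control library, a log2 ratio of -0.14 (-0.29 to 0.01), and lay below the minimum of 20 CPM. Crebbp had 1909 UMIs or 30.4 CPM (29.0 to 31.8) and 1507 UMIs or 30.6 CPM (29.1 to 32.2), a log2 ratio of -0.01 (-0.11 to 0.09). Thinned to 5000 UMIs, 6.40% of knockdown and 7.22% of control cells held an Ep300 UMI, and 13.3% and 15.3% a Crebbp UMI. Poly(A)-primed 3' counting gives no measure of protein or of acetyltransferase activity.

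To place the members among cell types, each cell was gated by the summed UMIs of marker lists per 10000 UMIs, none of which contains a member. Cells with at least 100 UMIs per 10000 from 7 granule protease list genes (Mpo, Elane, Prtn3, Ctsg, Ms4a3, Nkg7 and Prss57) and no other lineage were called granule-high, after their rule, because none of those 7 genes was 1.5-fold above all other cells in them. The list marks granulocyte-monocyte progenitors, but most cells of the culture carry it. Granule-high cells numbered 2747 (45.8%) in the knockdown and 1063 (36.5%) in the control library. Early neutrophil-like cells (neutrophil markers without the late ones) numbered 1238 and 618, late neutrophil-like cells 497 and 346, monocyte-macrophage-like cells 482 and 359, mast cell/basophil-like cells 373 and 171, and cells low for every list 517 and 246. The leading genes of that last group included haemoglobin, Pf4 and Cd34, so it mixes kinds of cells. Dendritic cell-like cells (66 and 65) and cells past several gates (84 and 44) were too few to compare.

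**Figure D1:**
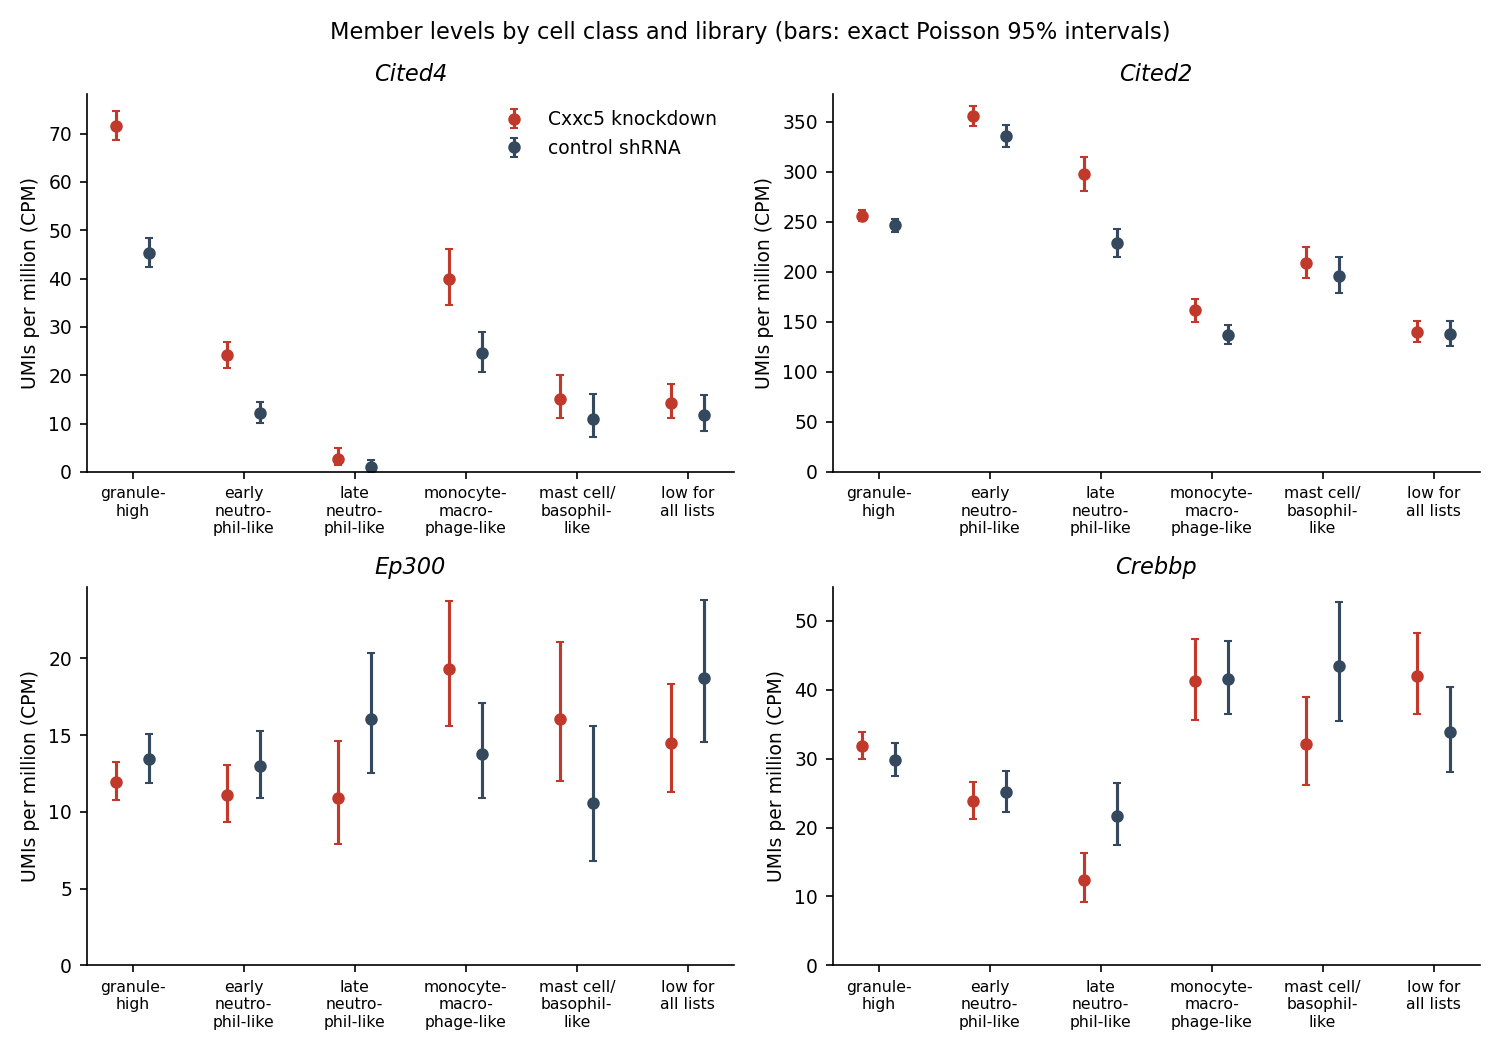
Level of each member in 6 classes of cells, in CPM on an axis from 0, with Cxxc5 knockdown in red left of control shRNA in dark blue and exact Poisson 95% intervals. Cited4 sits highest in granule-high cells of both libraries (71.6 and 45.3 CPM) and near 0 in late neutrophil-like cells, while Cited2 is highest in early neutrophil-like cells (356 and 335 CPM).

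Cited4 was concentrated in the granule-high cells, which held 77.7% of its UMIs in the knockdown and 72.6% in the control library. With the libraries pooled, among genes of at least 50 CPM, it had the largest ratio of granule-high over all other cells, 3.67-fold, ahead of Fkbp11 at 2.26-fold. Within the granule-high cells it was at 71.6 CPM (68.6 to 74.6) in the knockdown and 45.3 CPM (42.4 to 48.3) in the control library, with a UMI in 42.8% and 37.3% of cells. Monocyte-macrophage-like cells came next, at 39.9 CPM (34.5 to 46.0) and 24.6 CPM (20.8 to 28.9), followed by early neutrophil-like cells at 24.2 CPM (21.6 to 27.0) and 12.1 CPM (10.2 to 14.4). With the gates as set, these steps were wider than the counting intervals in both libraries. The place of the monocyte-macrophage-like cells moved with the gates, as 266 of the knockdown and 141 of the control cells lay within 20% of their threshold. With doubled thresholds they held 38 and 16 Cited4 UMIs in 166 and 142 cells, a level of 27.0 CPM (19.1 to 37.1) and 8.27 CPM (4.73 to 13.4), and with halved thresholds they were at 56.6 and 40.6 CPM. Granule-high cells were at 64.0 and 38.0 CPM with doubled and at 70.2 and 39.98 CPM with halved thresholds, so in the control library they were not above monocyte-macrophage-like cells with halved thresholds. Mast cell/basophil-like cells (15.1 and 10.98 CPM) and cells low for every list (14.3 and 11.7 CPM) did not differ beyond their intervals from each other, nor, in the control library, from early neutrophil-like cells. Late neutrophil-like cells were lowest of the compared classes, with 11 UMIs in 497 knockdown cells (2.72 CPM) and 4 UMIs in 346 control cells (0.93 CPM). In dendritic cell-like cells 0 of 66 knockdown cells held a Cited4 UMI, which allows a share of up to 4.55%, and 1 of 65 control cells did.

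No cell type known to lack Cited4 was at hand as a measure of free RNA. Among the compared classes, the share of late neutrophil-like cells with a UMI, 1.41% in the knockdown and 1.16% in the control library, is the nearest to one. Cells with 2000 and over neutrophil marker UMIs per 10000, described below, were lower, with 0 of 208 and 0 of 154 positive. The median depth of late neutrophil-like cells was 7952 and 12072.5 UMIs, against 11528 and 20169 UMIs in granule-high cells. Thinned to 5000 UMIs, 0.737% of knockdown and 0.319% of control late neutrophil-like cells held one, against 25.7% and 15.1% of granule-high cells. The Cited4 shares in the other compared classes, between 3.90% and 13.9% at that depth, were all above those of late neutrophil-like cells of the same library.

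The higher Cited4 level of the knockdown library was found within classes as well as over all cells. The log2 ratio was 0.66 (0.55 to 0.77) in granule-high cells, where 2.29% of 4886 genes were at least 1.2-fold higher and 2.97% lower, and Cited4 lay above 99.8% of genes. It was 0.99 (0.70 to 1.30) in early neutrophil-like cells, where 6.98% of genes were that much higher and 5.76% lower, and 0.70 (0.38 to 1.02) in monocyte-macrophage-like cells, where 6.6% were higher and 8.19% lower. In late neutrophil-like cells (1.55, -0.21 to 3.65), mast cell/basophil-like cells (0.46, -0.25 to 1.21) and cells low for every list (0.28, -0.29 to 0.87) the intervals included 0. The shares of genes at least 1.2-fold higher were 20%, 14.7% and 8.91% in these classes, and of genes that much lower 11%, 11.6% and 8.85%. Cited4 lay above 99.98%, 95.4% and 92.5% of the genes of at least 20 CPM there. It was itself under 20 CPM in these classes, with 11 and 4 UMIs in late neutrophil-like cells. The size of the Cited4 ratio depended on the gates. In granule-high cells it was 0.75 (0.59 to 0.91) with doubled and 0.81 (0.67 to 0.96) with halved thresholds. In early neutrophil-like cells it was 0.64 with doubled and 0.65 with halved thresholds. It was 1.71 (0.83 to 2.65) with doubled thresholds in monocyte-macrophage-like cells and 1.44 (1.03 to 1.87) with halved thresholds in mast cell/basophil-like cells. With the classes of the knockdown library weighted by the UMIs each class held in the control library, the log2 ratio over all cells was 0.69 in place of 0.82. Within granule-high cells the summed neutrophil markers were 1194 and 1239 CPM, the monocyte-macrophage markers 66.0 and 75.5 CPM and the granule protease list 20291 and 20137 CPM. The 7 megakaryocyte markers were at 26.1 and 9.35 CPM in the same cells, mostly Pf4, which encodes platelet factor 4, with 751 and 169 UMIs in 382 and 149 cells. Among the 2338 knockdown and 894 control granule-high cells with no UMI of these markers, a set chosen after the data were seen, the Cited4 log2 ratio was 0.63 (0.51 to 0.76).

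**Figure D2:**
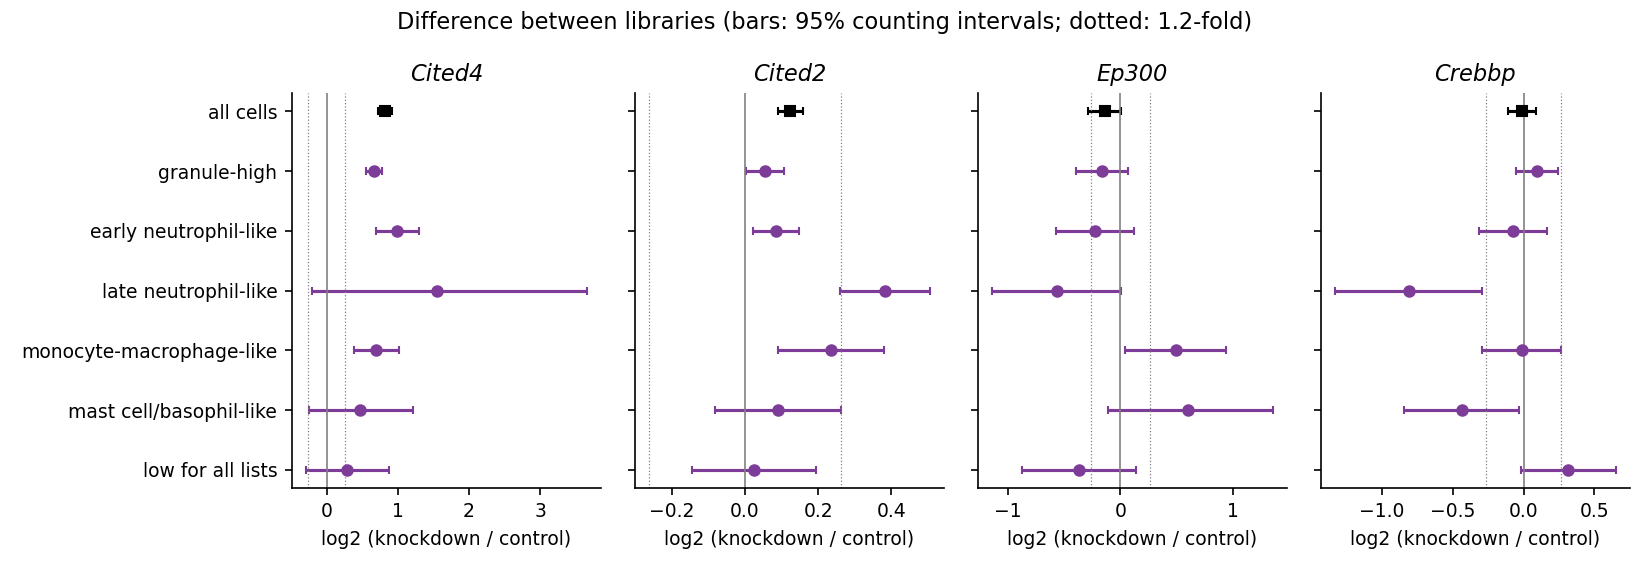
Log2 ratio of knockdown over control for each member over all cells (square) and in 6 classes (circles), with 95% counting intervals and dotted lines at 1.2-fold; the x axes differ in range. Cited4 is to the right of 0 in every row, with intervals clear of 0 over all cells (0.82) and in granule-high (0.66), early neutrophil-like (0.99) and monocyte-macrophage-like cells (0.70).

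Cited2 followed another order. It was highest in early neutrophil-like cells, at 356 CPM (346 to 366) in the knockdown and 335 CPM (325 to 347) in the control library. Late neutrophil-like cells had 298 CPM (281 to 315) and 228 CPM (214 to 243), granule-high cells 256 and 246 CPM, mast cell/basophil-like cells 209 and 196 CPM, and monocyte-macrophage-like cells 161 and 137 CPM. Monocyte-macrophage-like cells and cells low for every list (140 and 138 CPM) were lowest, and their intervals overlapped in both libraries. Late neutrophil-like cells thus held the least Cited4 and much Cited2. With the gates as set and all depths together, Cited2 passed 1.2-fold in those cells alone among the compared classes, with a log2 ratio of 0.38 (0.26 to 0.51), against 0.05 in granule-high, 0.09 in early neutrophil-like and 0.24 (0.09 to 0.38) in monocyte-macrophage-like cells. With doubled thresholds the monocyte-macrophage-like cells were past it too, at 0.34 (0.06 to 0.62). In late neutrophil-like cells 20% of 4049 genes were at least 1.2-fold higher, and Cited2 lay above 91.2% of them, so it was inside the upper tail of a broad spread.

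Ep300 and Crebbp had a narrower range across classes than Cited4. Ep300 lay between 10.9 and 19.3 CPM in knockdown and between 10.6 and 18.7 CPM in control classes, with wide intervals from 25 to 377 UMIs per class. Crebbp was lowest in late neutrophil-like cells, at 12.4 CPM (9.2 to 16.3) in the knockdown and 21.7 CPM (17.5 to 26.5) in the control library, a log2 ratio of -0.81 (-1.33 to -0.30). There 11% of genes were at least 1.2-fold lower, and Crebbp lay above 0.69% of genes, but with all gate thresholds halved the log2 ratio was -0.36 (-0.82 to 0.09), and with all doubled -0.62 (-1.20 to -0.06). Elsewhere Crebbp was between 23.8 and 42.1 CPM in the knockdown and between 25.1 and 43.5 CPM in the control library. In mast cell/basophil-like cells it had a log2 ratio of -0.44 (-0.85 to -0.03), where 11.6% of genes were at least 1.2-fold lower, and -0.13 with halved thresholds. Ep300 had a log2 ratio of 0.49 (0.05 to 0.94) in monocyte-macrophage-like cells, from 92 and 81 UMIs, where 6.6% of genes were at least 1.2-fold higher. It was 0.28 with halved and 0.21 with doubled thresholds, with intervals that included 0.

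The gates cut a continuous culture, so the members were also followed along the marker sums themselves. Along the granule protease list, in all cells, Cited4 had a peak in the middle. In knockdown cells it was at 3.17 CPM under 20 list UMIs per 10000, 16.9 CPM at 50 to 100, 72.0 CPM at 150 to 200, 46.1 CPM at 250 to 300 and 20.0 CPM at 350 and over. In control cells the values at the same points were 0.64, 11.4, 47.3, 26.8 and 12.8 CPM. Both libraries thus had their highest level at 150 to 200 list UMIs, and the knockdown value was above the control value in all 9 bins. Cited2 instead was at 177 CPM in knockdown and 145 CPM in control cells under 20 list UMIs, and at 361 and 350 CPM at 350 and over. Crebbp was at 36.9 and 43.4 CPM in the lowest bin and at 18.8 and 24.0 CPM in the highest, opposite to Cited2 in both libraries.

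**Figure D3:**
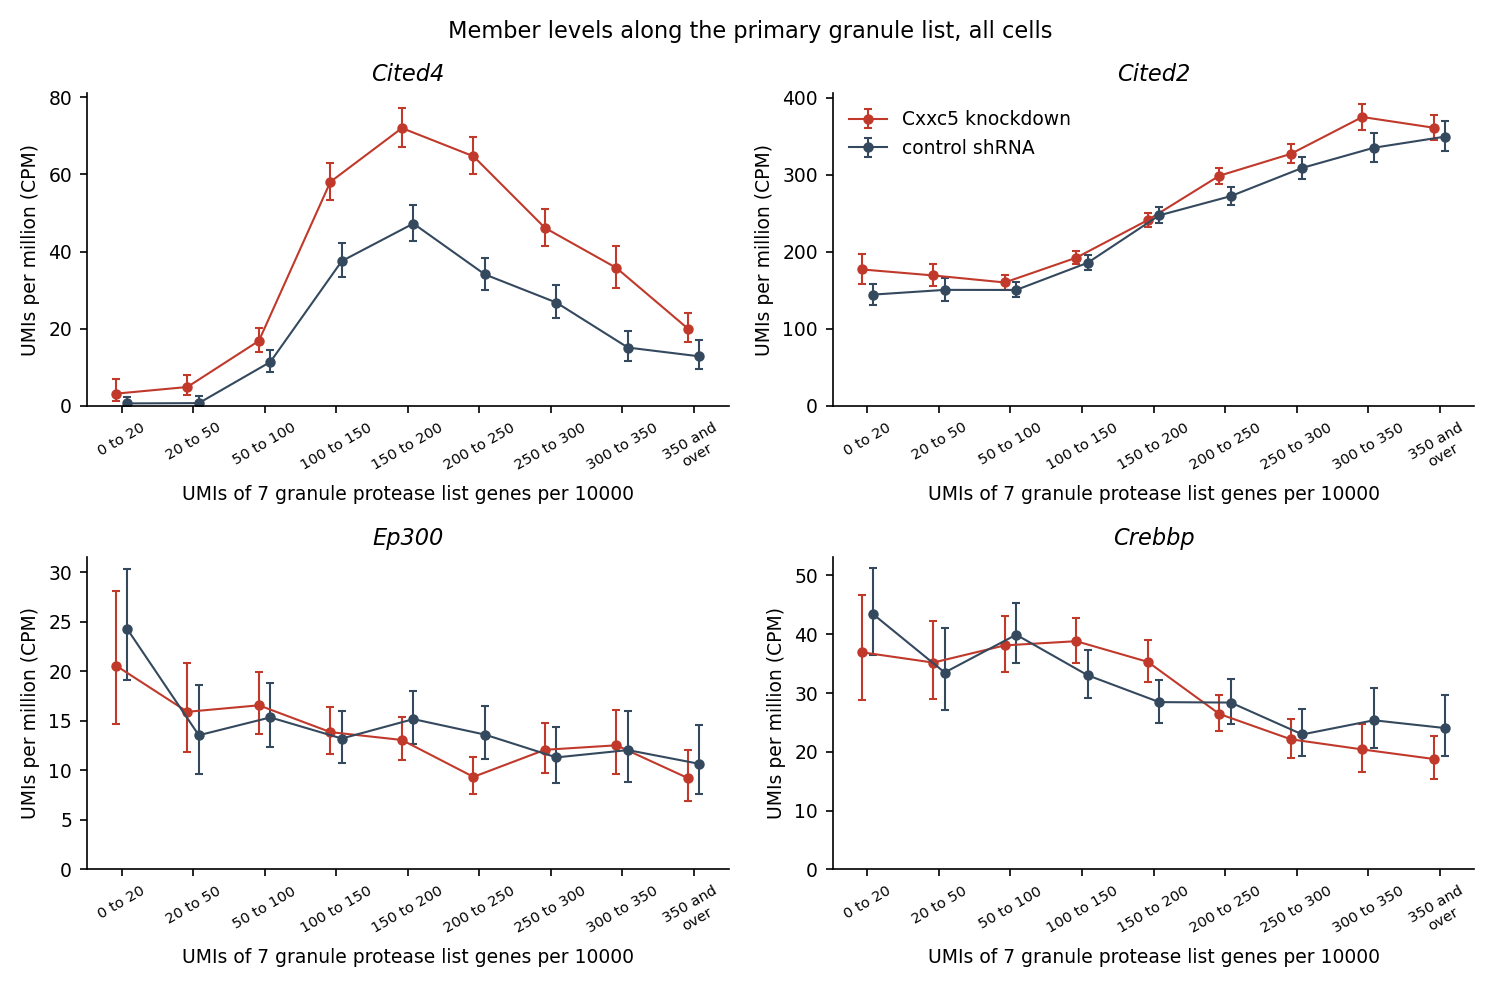
Member levels in CPM (y axes from 0) in bins of the summed UMIs of 7 granule protease list genes per 10000 UMIs of the cell, all cells, with exact Poisson 95% intervals; knockdown in red, control in dark blue. Cited4 peaks at 150 to 200 in both libraries (72.0 and 47.3 CPM), Cited2 is highest in the upper bins and Crebbp lowest there.

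Along the 12 neutrophil markers, among granule-high and neutrophil-like cells, Cited4 was lower the more of the markers a cell held, beyond 20 marker UMIs per 10000. Knockdown cells held 64.7 CPM under 5 marker UMIs per 10000, 82.1 CPM at 10 to 20, 43.2 CPM at 50 to 100, 6.32 CPM at 300 to 1000 and 3.43 CPM at 1000 to 2000. Control cells held 40.4, 48.8, 18.9, 2.41 and 1.03 CPM at the same points. At 2000 and over, 0 of 208 knockdown cells held a Cited4 UMI, which allows a share of up to 1.44%, and 0 of 154 control cells, which allows up to 1.95%. Cited2 was highest in the middle of the range. In knockdown cells it was at 201 CPM under 5 marker UMIs, 371 CPM at 300 to 1000 and 242 CPM at 2000 and over, and in control cells at 194, 324 and 180 CPM. The log2 ratio of Cited2 was 0.05 in the lowest bin and 0.43 (0.20 to 0.66) in the highest. Crebbp was at 36.0 and 32.3 CPM in the lowest and 11.6 and 21.6 CPM in the highest bin.

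**Figure D4:**
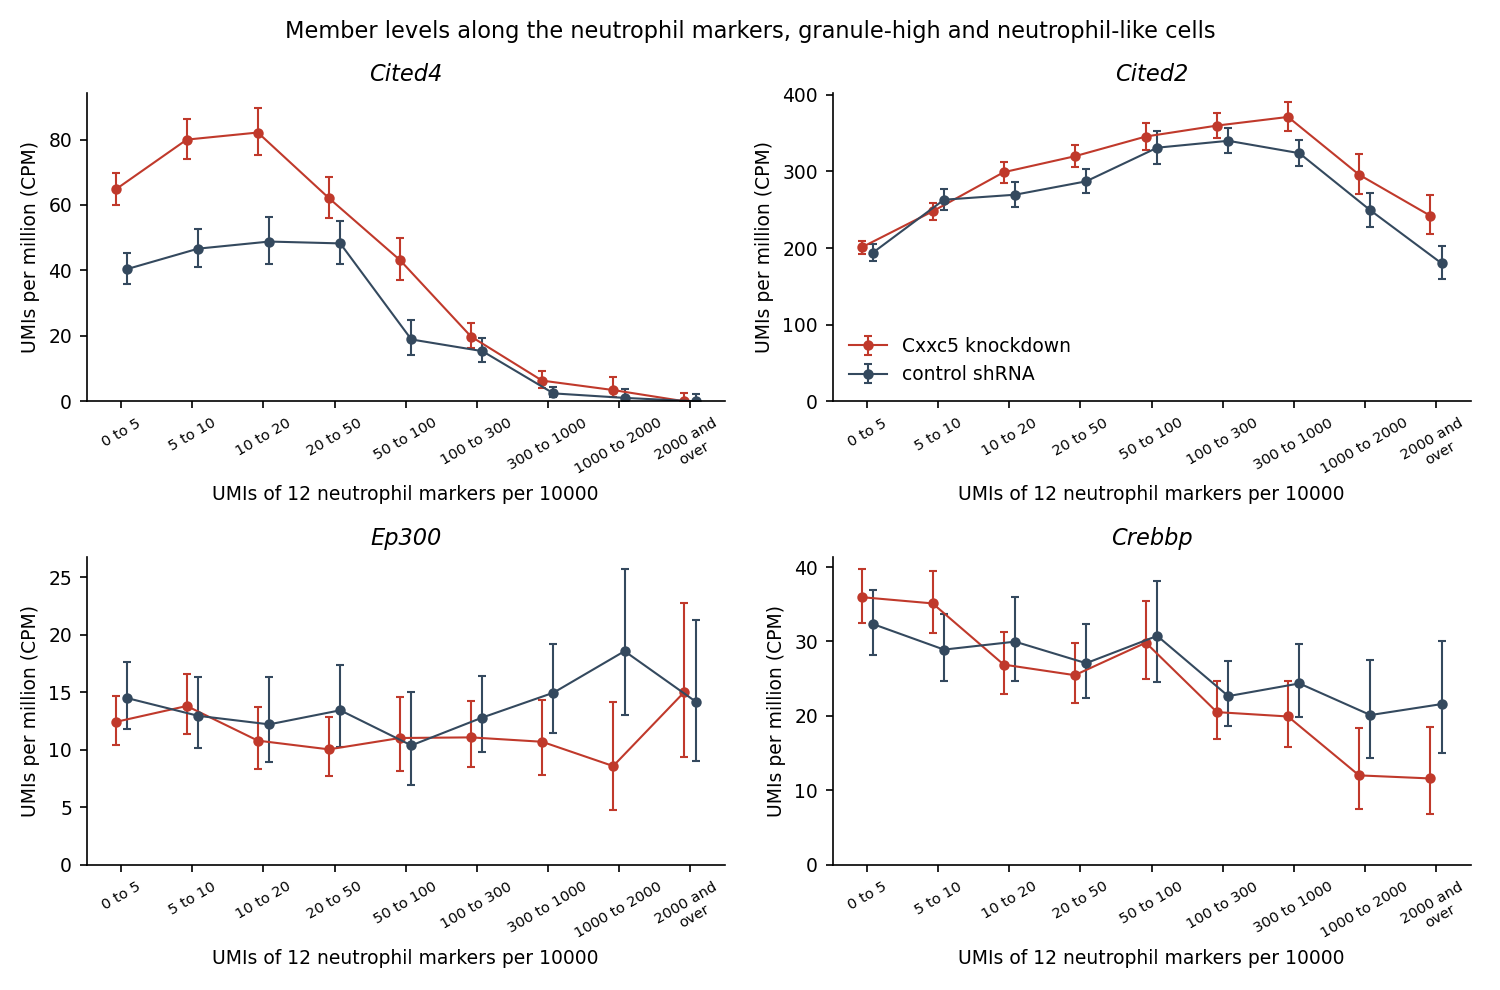
Member levels in CPM (y axes from 0) in bins of the summed UMIs of 12 neutrophil markers per 10000 UMIs of the cell, in granule-high and neutrophil-like cells, with exact Poisson 95% intervals; knockdown in red, control in dark blue. Cited4 declines to 0 in the last bin of both libraries, while Cited2 is still at 242 and 180 CPM there.

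Cell cycle and stem cell markers were set beside Cited4 within the granule-high cells. Over 6 bins of 13 G2/M phase genes Cited4 stayed between 66.2 and 77.3 CPM in the knockdown and between 38.0 and 48.8 CPM in the control library. In cells with under 10 UMIs per 10000 of 14 S phase genes it was at 58.9 and 27.8 CPM, below the 72.3 and 48.9 CPM of cells with 10 to 20. Over the 10 stem and multipotent progenitor genes it was at 74.8 and 46.1 CPM in cells with under 0.5 UMIs per 10000 and at 63.9 and 40.2 CPM in cells with 2 to 4. The knockdown level was the higher in each bin given here. The top bins of the S phase and stem lists held too few control cells to compare. With 30 to 40 S phase UMIs there were 27 knockdown and 2 control cells, and with 8 and over stem list UMIs 8 and 0.

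Depth differed between the libraries and went with cell class, so it was examined next. Within each library, cells were ranked by total UMIs and split into 5 equal groups. From the shallowest to the deepest group, Cited4 was at 23.9, 30.6, 45.0, 54.9 and 55.1 CPM in the knockdown and at 16.9, 14.1, 20.7, 29.1 and 34.4 CPM in the control library. The granule-high share in the same groups was 26.8%, 36.3%, 50.2%, 57.1% and 58.3% in the knockdown and 26.8%, 19.4%, 34.0%, 49.0% and 53.4% in the control library. In both libraries the 2 deepest groups thus had more Cited4 per UMI, and more granule-high cells, than the 2 shallowest. The log2 ratios of Cited4 were 0.50, 1.12, 1.12, 0.92 and 0.68.

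Matching cells on total UMIs alone changed the size of the difference, which depended on the depth chosen. The Cited4 log2 ratio was 0.11 (-0.48 to 0.73) at 6000 to 8000 UMIs and 0.47 (0.05 to 0.91) at 8000 to 10000. It was 1.89 at 10000 to 12000 UMIs, 2.13 at 12000 to 16000 and 1.33 at 16000 to 20000. At 20000 to 25000 UMIs it was 0.38 (-0.07 to 0.81). At 25000 and over it was -1.14 (-3.42 to 0.42), from 7 knockdown and 432 control cells. Among cells of 8000 to 16000 UMIs, 4025 in the knockdown and 810 in the control library, Cited4 was at 48.5 and 15.4 CPM, a log2 ratio of 1.65 (1.41 to 1.90). Among granule-high cells of that depth, 2060 and 176, it was at 74.1 and 47.3 CPM, a log2 ratio of 0.65 (0.35 to 0.96), close to the 0.66 of all granule-high cells. Early neutrophil-like cells of that depth gave 1.89 (1.09 to 2.82), from 240 and 13 UMIs. Cited2 in the same window had a log2 ratio of 0.37 (0.30 to 0.44) over all classes, 0.00 (-0.13 to 0.13) in granule-high cells and 0.74 (0.56 to 0.91) in late neutrophil-like cells. It was also past 1.2-fold there in monocyte-macrophage-like cells, at 0.52 (0.24 to 0.80), from 303 and 102 cells. In mast cell/basophil-like cells it was at 0.69 (0.39 to 1.01), from 187 and only 66 cells, under the 100 set for classes. The share of all genes past 1.2-fold in this window was not computed. Ep300 in the window was lower in the knockdown library, with a log2 ratio of -0.38 (-0.64 to -0.11) over all classes. It was -0.76 (-1.24 to -0.24) in granule-high cells from 286 and 40 UMIs, and -0.79 (-1.34 to -0.22) in early neutrophil-like cells from 109 and 38 UMIs. At all depths together these classes had Ep300 at -0.16 (-0.39 to 0.06) and -0.22 (-0.57 to 0.12), with intervals that included 0. In the window Ep300 was at -0.10 (-0.88 to 0.70) in late neutrophil-like cells. It was at -0.29 (-1.09 to 0.58) in cells low for every list, from 287 and 90 cells. The direction was opposite in monocyte-macrophage-like cells, at 0.35 (-0.46 to 1.25). It was also opposite in mast cell/basophil-like cells, at 1.53 (0.03 to 3.49), from 31 and only 4 UMIs. Crebbp in the window was at -0.10 (-0.29 to 0.08) over all classes, but narrower depth bins went opposite ways. Its log2 ratio was -0.70 (-1.06 to -0.32) at 8000 to 10000 UMIs and 0.23 (-0.03 to 0.50) at 12000 to 16000. Outside the window Crebbp was at -0.80 (-1.25 to -0.34) at 6000 to 8000 UMIs and at 0.36 (0.12 to 0.61) at 16000 to 20000. Whether depth had a part in the class ratios was not tested beyond these values.

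**Figure D5:**
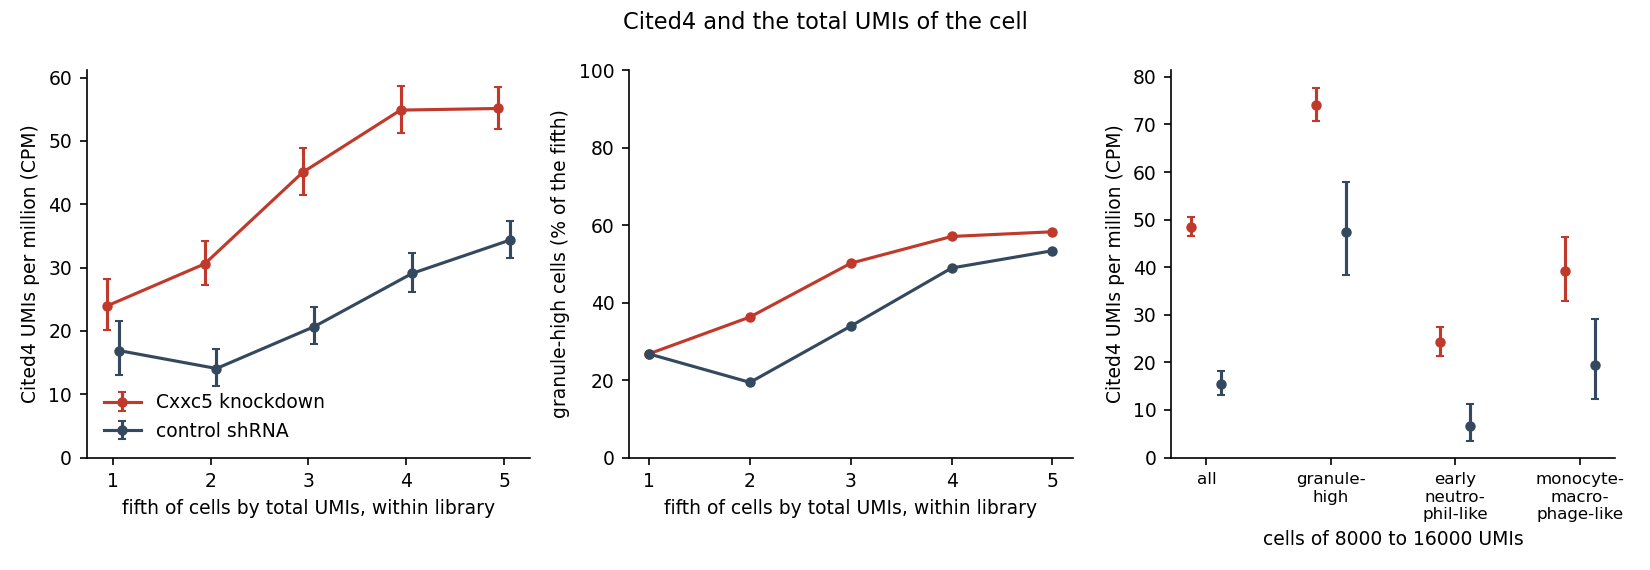
Left, Cited4 level in CPM in 5 equal groups of cells by total UMIs within each library, shallowest first; middle, granule-high cells as percent of each group; right, Cited4 level in cells of 8000 to 16000 UMIs, for all cells and 3 classes. Bars are exact Poisson 95% intervals, knockdown is red and control dark blue. Both the Cited4 level and the granule-high share are highest in the deepest group, and at matched depth the granule-high cells stand at 74.1 and 47.3 CPM.

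Within granule-high cells, those with a Cited4 UMI held other members about as often as those without. At 5000 UMIs per cell, 17.0% of granule-high knockdown cells held both a Cited4 and a Cited2 UMI, where the product of the single shares gives 17.4%, and 10.2% of granule-high control cells did, where it gives 9.92%. A Crebbp UMI was found in 14.2% of Cited4-positive and 14.1% of Cited4-negative granule-high knockdown cells, and in 15.1% and 16.3% of those of the control library. Monocyte-macrophage-like knockdown cells departed from this, with a Cited2 UMI in 69.0% of 58 Cited4-positive and 50.6% of 358 Cited4-negative cells, while the control library had 45.7% of 35 and 42.2% of 303. Both CITED genes were unevenly spread. The variance of UMIs over their mean in thinned cells was 1.54 in the knockdown and 1.48 in the control library for Cited4, and 1.43 and 1.37 for Cited2, where the median gene had 1.04 and 1.05. Cited4 exceeded 95.4% and 93.4% of genes. Within granule-high cells Cited4 still had 1.47 and 1.48, above 97.9% and 97.4% of genes, while Crebbp had 1.04 and 1.08 and Ep300 0.98 and 1.10.

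Across the 12 points given by 6 classes in 2 libraries, the genes whose log2(CPM + 1) was most correlated with Cited4 were Armc1 (r = 0.99), Uso1 (0.98), P4ha1 (0.97), Ncln (0.97) and Spop (0.97), out of 4490 genes. For Cited2 they were Pmvk (0.98), Tmed3 (0.97), Atp6ap2 (0.96), Acadsb (0.96) and Gstm1 (0.95). The points share libraries and depth, so these are descriptions. Over the same points Cited4 and Cited2 had an r of -0.10, Cited4 and Crebbp 0.56, and Cited2 and Crebbp -0.71. The neighbours of Cited4 had smaller ranges than Cited4 itself: Uso1 was at 48.3 and 45.3 CPM in granule-high and 18.8 and 14.4 CPM in late neutrophil-like cells. On the chromosome, the neighbours before Cited4 were almost silent, with 10 and 7 UMIs for Gm8439 and 0 and 1 for Gm12860. Nfyc, which encodes a subunit of the CCAAT-binding factor NF-Y and lies on the other side, was at 29.5 and 27.5 CPM, a log2 ratio of 0.10 (0.00 to 0.20). The 4 neighbours of Cited2 held between 0 and 5 UMIs.

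The surrounding pathway was described with 8 lists. Of 27 HIF target genes 18 reached 20 CPM, of which 6 were at least 1.2-fold higher and 0 lower in the knockdown library, where 3.02% of all genes were higher and 4.06% lower. The median log2 ratio of the 18 was 0.13, and that of all genes 0.04. The 6 were Bnip3, a mitophagy receptor (30.2 and 21.5 CPM, log2 ratio 0.49, 0.38 to 0.60), Slc16a3, a lactate exporter (47.5 and 35.8 CPM, 0.41), the glycolytic genes Tpi1 (0.35), Pgk1 (0.33) and Pfkfb3 (0.32), and the collagen prolyl hydroxylase subunit P4ha1 (0.28). Pfkfb3, at 20.7 and 16.6 CPM, reached the minimum of 20 CPM only in the knockdown library. Bnip3l, related to Bnip3, had the lowest ratio at -0.24. Of 10 HIF factors and regulators 4 reached 20 CPM and 0 passed 1.2-fold in either direction: Hif1a itself was at 58.1 and 56.7 CPM (0.03), and the oxygen-sensing hydroxylase genes Egln1, Egln3 and Egln2 had log2 ratios of 0.17, 0.15 and 0.02. Summed over the 27 targets, the level was higher in the knockdown library in all 6 classes, with 5258 and 4875 CPM in granule-high cells and 4499 and 4207 CPM in late neutrophil-like cells. The sums of the other acetyltransferase genes and of the stem cell genes tied to Cited2, both described below, were also higher in all 6 classes. The HIF target sum is ruled by its most abundant genes, which are glycolytic. Gapdh was at 1336 and 1361 CPM (log2 ratio -0.03), Aldoa at 973 and 888 CPM (0.13) and Ldha at 886 and 751 CPM (0.24). The cause of the difference in the sum was not tested. No oxygen level or HIF protein was measured.

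Among 13 other acetyltransferase genes 5 reached 20 CPM, 1 was higher and 0 lower. That was Kat2a, which encodes GCN5, at 32.2 and 26.6 CPM (log2 ratio 0.27, 0.17 to 0.37). Among 37 factors that recruit CBP or p300, 14 reached 20 CPM, 1 was higher and 0 lower, with a median log2 ratio of -0.00. Cebpb, a C/EBP factor of myeloid cells, was the one higher (74.7 and 62.1 CPM, 0.27), Myb had 0.20 and Atf1 was lowest at -0.19. Of the 6 genes Tfap2a to Tfap2e and Tfap4, 0 reached 20 CPM. Tfap2a had 8 UMIs in the knockdown and 13 in the control library, Tfap2b, Tfap2c and Tfap2d had 0 in both and Tfap2e had 1 and 0. Tfap4 was at 16.6 and 14.8 CPM. Of 16 stem cell genes tied to Cited2 in mouse 7 reached 20 CPM and 0 passed 1.2-fold, with Gfi1 highest at 0.20. Likewise 0 of 5 deacetylase genes, with Sirt2 lowest at -0.14, and 0 of 5 bromodomain reader genes, with Brd3 lowest at -0.15, passed that threshold among those of at least 20 CPM.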

How the data were processed

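The authors deposited 1 table of UMI counts per gene and cell barcode for each library, made from 10x Genomics 3' version 2 libraries per the labels' protocols, and, per the submitters' processing notes, Cell Ranger 2.1.1 with the mm10 build. The annotation release is not given in the sources used here. Total UMIs were 62910229 in the knockdown and 49333454 in the control library.

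Barcodes with fewer than 500 detected genes or over 10% mitochondrial UMIs were left out, which removed 11 of 6015 knockdown and 13 of 2925 control barcodes. UMIs were summed over cells and divided by total UMIs (CPM), with exact Poisson intervals for levels, exact intervals from the binomial split of UMIs for ratios and Clopper-Pearson intervals for shares. All treat UMIs or cells as independent, leave out differences between mice, infections and cultures, and understate the error where UMIs sit in few cells. With 0 positive cells the limit is 3 cells over the number of cells. No p-value was computed, and 1.2-fold at 20 CPM is a rule of size. Scrublet (scanpy 1.11.5) marked 6 knockdown and 1 control cells, which is too low a rate to be usable, so no doublet was removed.

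Gates were, per 10000 UMIs, 6 for dendritic cell, 20 for late neutrophil, 50 for neutrophil, 6 for mast cell/basophil, 4 for monocyte-macrophage and 100 for granule protease lists. A dendritic call took precedence over a monocyte one. Within 20% of a threshold lay 616 knockdown and 312 control cells for the granule protease list and 266 and 141 for the monocyte-macrophage list. Comparisons used classes of 100 or more cells in both libraries, counted over all depths. Thresholds were set after the marker sums were seen, and the dendritic precedence and the marker bins after member values were seen. Members and gene lists were chosen with earlier results of these data known. List members named are those with the highest and lowest ratios at 20 CPM or more, plus all members past 1.2-fold at that level. The Egln, Hif1a and TFAP2 genes and Gapdh, Aldoa, Ldha, Jun, Fos, Rara and Smad3 were named after their values were seen. Of the genes this rule and the neighbour rule name, 2 are not reported here. The arithmetic was tested on simulated counts. The tools were Python 3.11.15, numpy 2.4.6, scipy 1.17.1 and pandas 2.3.3.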

Additional observations from a re-analysis of the deposited data

Results flagged for a closer look

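The partners Ep300 and Crebbp had log2 ratios past 1.2-fold in opposite directions in different classes, which drew attention to them. Among genes of at least 20 CPM, 20% were at least 1.2-fold higher and 11% lower in late neutrophil-like cells. The shares were 14.7% and 11.6% in mast cell/basophil-like cells, 8.91% and 8.85% in cells low for every list, and 6.6% and 8.19% in monocyte-macrophage-like cells. The level of Ep300 was under 20 CPM in every compared class of both libraries. Ep300 was at -0.56 in late neutrophil-like cells and -0.37 in cells low for every list, and at 0.49 in monocyte-macrophage-like and 0.60 in mast cell/basophil-like cells. Crebbp was at -0.81 in late neutrophil-like and -0.44 in mast cell/basophil-like cells, and at 0.31 in cells low for every list. The differences between classes were not tested, since each group had 1 library. Of these values, those of Ep300 in monocyte-macrophage-like and of Crebbp in late neutrophil-like and mast cell/basophil-like cells had counting intervals that did not include 0. With all gate thresholds doubled, Crebbp was at -0.62 (-1.20 to -0.06) in late neutrophil-like cells. With all halved, it was at -0.36 (-0.82 to 0.09) in late neutrophil-like cells and at -0.13 in mast cell/basophil-like cells, and Ep300 at 0.00 in mast cell/basophil-like cells. Ep300 in monocyte-macrophage-like cells was at 0.28 with halved and 0.21 with doubled thresholds, both with intervals that included 0.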

How the results depend on the processing

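No paired analysis was possible because each group had 1 library, and no replicate could be left out. Over 11 alternatives the Cited4 log2 ratio over all cells lay between 0.69 and 0.96. It was 0.96 with cells thinned to 5000 UMIs, 0.69 at the control library's class shares and 0.72 at its shares of depth bins, the deepest of which held 63 knockdown and 1043 control cells. Its share of positive cells differed by 19.6 percentage points at 8000 to 16000 UMIs (30.5% and 10.9%), against 6.26 over all cells. Cited2, at 0.12, was 0.089 with median-of-ratios scaling, 0.18 thinned and -0.063 at depth bin shares, and its share difference of -4.66 points turned to 4.99 thinned and 6.92 at 8000 to 16000 UMIs. Ep300, at -0.14, was -0.33 at depth bin shares, and its share difference of -8.30 points was -0.83 and -4.78. Crebbp, at -0.01, was -0.23 thinned and 0.24 at depth bin shares, and its share difference of -12.8 points was -2.06 and -2.57. The causes were not tested. Genes past 1.2-fold numbered 340 of 4798, 159 of 2549 at a minimum of 50 CPM and 4905 of 14626 with no minimum. With gate thresholds halved or doubled, the class ratios of Cited4 lay between 0.48 and 1.85. With doubled and halved thresholds it was 0.75 and 0.81 in granule-high cells and 0.64 and 0.65 in early neutrophil-like cells. It was 1.71 in monocyte-macrophage-like cells with doubled and 1.44 in mast cell/basophil-like cells with halved thresholds. Doubled gates for mast cell/basophil-like cells and halved gates for cells low for every list left under 100 cells in a library and were not compared. With 804 and 694 UMIs for Ep300, depth limits what its class values can show.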
